A study of Rattus norvegicus with 11 samples.

Results

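The TCA cycle and respiratory chain genes form a list of 37 members, made up of 14 enzymes of the tricarboxylic acid (TCA) cycle, 20 subunits of complexes I to IV with 1 further gene for cytochrome c, and 2 nuclear regulators of mitochondrial genes. They were taken from a fixed list of names, matched to array probes by RefSeq identifier, and not by their values. Of the 37 members, 36 had a probe. All 36 were well above background on all 11 arrays, and they stood among 25250 genes tested in the whole series, 14358 of them with a gene symbol. No probe matched Cyc1, which encodes cytochrome c1, and it was not analysed here. For the 3 members with 2 probes each (Cycs, Cox7a2 and Nrf1), the brighter probe was used.

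The TCA cycle oxidises acetyl-CoA to carbon dioxide and hands the electrons to NADH and to complex II. Complexes I to IV pass these electrons by way of ubiquinone and cytochrome c to oxygen. Complexes I, III and IV pump protons, which ATP synthase uses. In the renal cortex the proximal tubule is rich in mitochondria, because the reabsorption of sodium and glucose runs on ATP. Nearly all subunits of the chain are encoded in the nucleus, and the proteins NRF1 and TFAM regulate nuclear and mitochondrial genes for it.

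The study hybridised kidney cortex RNA from Sprague Dawley rats to Agilent oligonucleotide arrays with 1 dye. DM+RYGB rats (2 arrays) had type 1 diabetes induced with streptozotocin, which kills the beta cells, and Roux-en-Y gastric bypass (RYGB) 4 weeks later. DM+Sham rats (3 arrays) had the same diabetes and a sham operation. Control+RYGB rats (3 arrays) had no diabetes and the bypass, and Control+Sham rats (3 arrays) had no diabetes and a sham operation. All cortices were taken 4 weeks after surgery. The labels do not say whether rats were pooled or that replicates are separate animals, so p-values measure the spread between these samples, which may be technical. The arrays DM+Sham 2 and 3 lay closer together than repeated spots of 1 array and entered as 1 sample, and so did Control+RYGB 2 and 3. This left 2 samples each of DM+RYGB, DM+Sham and Control+RYGB and 3 of Control+Sham.

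The 75th percentile of the signal lay between 1541 and 4454 units per array, and 77.7% to 93.5% of probes were well above background. DM+RYGB 2 stood apart. The summed level of 8 heart muscle markers there was 295 times the 75th percentile, against 0.482 to 0.964 in the other 10 arrays, with Tnnt2 (cardiac troponin T) the brightest at 6.54 on the log2 scale, against -3.34 to -1.86. All 8 heart markers were well above background in DM+RYGB 2 and 4 to 8 of them in the other arrays. The skeletal muscle sum was 10.3 there, against 0.146 to 0.473. Ckm read 3.19 there, against -7.11 to -4.01, and Acta1 read -0.61, against -7.26 to -4.34. Tnni2 (-1.18) and Tnnt3 (-5.35) were just above their highest other values of -1.64 and -5.54, and Myh4 lay within its range elsewhere. The brown fat sum was 8.52, against 0.716 to 0.931, and came from Cidea, at 3.09 against -0.52 to -0.14. Ucp1 (-5.62) and Elovl3 (-7.50) lay within their range in the other arrays. The red cell sum was 64.9 in DM+RYGB 2 and 4.55 in DM+RYGB 1, against 11.3 to 45.8 in the other 9 arrays. All 15 proximal tubule markers, which define the cortex, were well above background on every array. Their sum was 261 and 146 in DM+RYGB, 279, 216 and 216 in DM+Sham, 483, 368 and 388 in Control+RYGB, and 249, 259 and 177 in Control+Sham. By the rule used for the members, 1 of these 15 markers was called higher and 2 lower in DM+Sham against Control+Sham, 10 lower in DM+RYGB against DM+Sham (also without DM+RYGB 2) and 1 higher in Control+RYGB against Control+Sham. Of 7 collecting duct markers, 3 were called higher in DM+Sham against Control+Sham and 3 higher in DM+RYGB against DM+Sham. Of 6 markers of the thick limb and distal tubule, 1 was called higher in DM+RYGB against DM+Sham, and 4 without DM+RYGB 2. The part of these cell types in the members' values was not tested. In bulk tissue, fewer cells of a type and less RNA per cell cannot be told apart.

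Heart muscle is rich in mitochondria, and most members were higher in the array that held its markers. Of the 36 members, 30 were higher in DM+RYGB 2 than in DM+RYGB 1, which is 83.3%, against 33.3% of all genes. The median difference between these 2 arrays was 0.40 for the members and -0.19 for all genes. Complex I was higher in DM+RYGB 2 for 6 of 6 subunits, by 0.26 to 0.51, and the largest gaps were 1.23 for Cox5a and 1.09 for Uqcrfs1. Cycs differed by -0.01 and Sdha by 0.04. Muscle forms of complex IV subunits were high there as well. Cox6a2 read 5.56 in DM+RYGB 2, against -4.51 to -3.15 elsewhere, and Cox8b read 3.64, against -4.52 to -2.66. The part of heart muscle RNA in the members' values was not tested. The changes, calls and class medians below that involve DM+RYGB are given with and without this array. Values from other probes or other scalings, the counts of arrays that do not overlap and the counts at an unadjusted p use both DM+RYGB arrays.

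**Figure D1:**
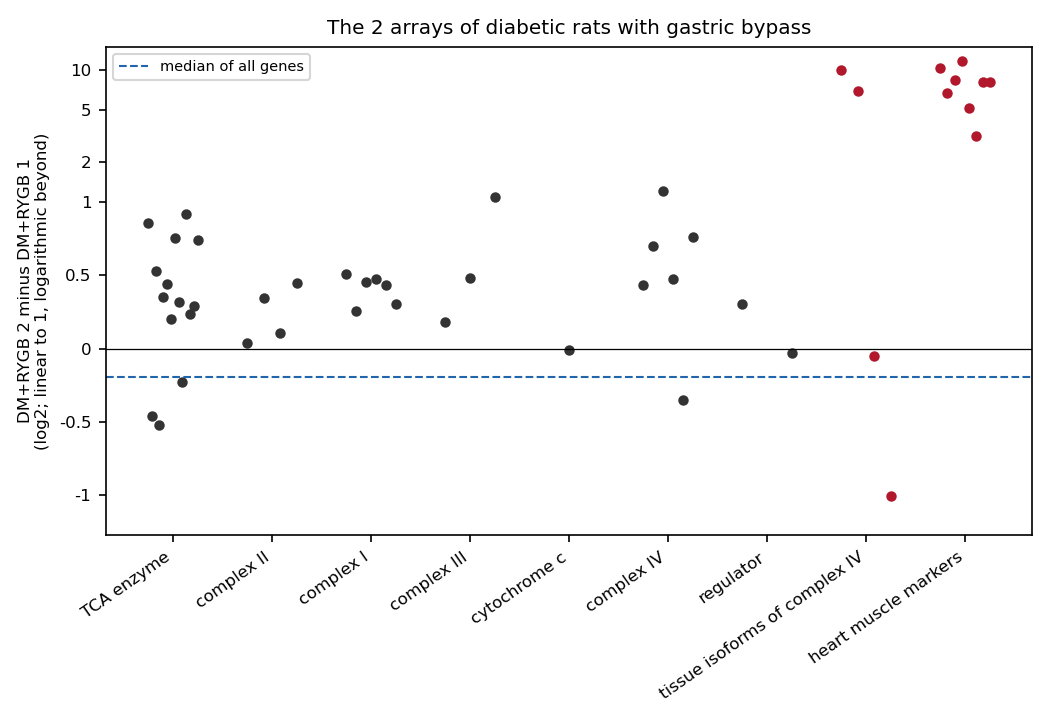
Difference between the 2 DM+RYGB arrays (DM+RYGB 2 minus DM+RYGB 1, log2, linear up to 1 and logarithmic beyond), 1 point per gene by class, with the median of all genes dashed at -0.19. Most members lie above 0, while the heart muscle markers and the muscle isoforms Cox6a2 and Cox8b lie between 3.18 and 11.7.

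Diabetes, tested in sham-operated rats, left most of the members without a call. A gene was called when its adjusted p from limma was under 0.05, in the same direction, under 3 ways of scaling the arrays. In DM+Sham against Control+Sham, 1 of 36 members was called higher (Aco1) and 2 lower (Mdh1 and Nrf1), against 6.67% and 6.46% of all genes. The members' median change was -0.03 relative to the median of all genes, and single changes ran from -0.59 to 0.81 with standard errors of 0.10 to 0.36. The arrays of the groups did not overlap for 9 members above and 10 below, against 29.7% and 24.2% of all genes. The count was 0 when Control+Sham 1, or Control+Sham 2, or DM+Sham 1, or the pair DM+Sham 2 and 3 was left out. It was 1, in the higher direction, when Control+RYGB 1 or the pair Control+RYGB 2 and 3 was left out. Without Control+Sham 1 and Control+Sham 2, 5.41% and 5.96% of all genes were called. Leaving out DM+RYGB 1 or DM+RYGB 2 kept the members' changes and their relative median of -0.03. The count of members and the share of all genes called rose there, through the shared estimate of the spread alone. The count was 0 with scan day as a block, where 6.89% of all genes were called. With normexp background correction it was 0 as well, where 0.574% of all genes were called and the members' relative median was 0.11.

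Gastric bypass in diabetic rats gave the largest count among the members, and also among all genes, where 24% were called in either direction. In DM+RYGB against DM+Sham, 4 members were called higher (Mdh1, Sdhb, Uqcrc1 and Cycs) and 1 lower (Aco1), against 13.1% and 10.9% of all genes. With the 75th percentile alone, 11 were past the threshold higher and 1 lower, with median scaling 5 and 4, and with quantile scaling 6 and 3, against 52.8%, 46.3% and 37.5% of all genes in either direction. The median of all genes itself shifted by 0.57 on the 75th percentile scale, by 0.25 under median scaling and by -0.06 under quantile scaling. Relative to all genes, the members' median was -0.13. DM+RYGB arrays lay above all DM+Sham arrays for 21 members and below for 4, against 59.4% and 17.8% of all genes. Without DM+RYGB 2, the count was 2 higher (Idh3b and Cycs) and 4 lower (Aco1, Sucla2, Uqcrfs1 and Tfam), against 15% and 12.3% of all genes, and the relative median was -0.41. Without DM+RYGB 1, the relative median turned to 0.09. For the 30 of 36 members that were higher in DM+RYGB 2, the change was then more positive than without DM+RYGB 2. Cs, Ndufs1 and Uqcrc2 differed by 1.13, 0.94 and 1.34, against 0.27, 0.43 and 0.85 without DM+RYGB 2. Idh3b went the other way, at 0.46 against 0.99. Scan day as a block gave 2 higher and 1 lower, against 17.2% of all genes in either direction, and normexp background correction gave 0 and 1, against 10.3%. When DM+Sham 1, or Control+RYGB 1, or the pair Control+RYGB 2 and 3, or Control+Sham 1, or Control+Sham 2 was left out, 2 were higher and 1 lower. Dropping the pair DM+Sham 2 and 3 left 1 and 1. The DM+Sham samples serve in this comparison and in the one on diabetes.

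Gastric bypass in rats without diabetes moved few members past the threshold. In Control+RYGB against Control+Sham, Cycs was called higher and Nrf1 lower, against 7.77% and 5.49% of all genes (13.3% in either direction). With the 75th percentile alone 9 were higher and 1 lower, with median scaling 3 and 1, and with quantile scaling 1 and 2, against 27.1%, 23.1% and 19.7% of all genes in either direction. All genes shifted by 0.29 under the 75th percentile and by -0.05 under quantile scaling, and the members' relative median was 0.05 under the first and -0.12 under the second. Control+RYGB arrays lay above Control+Sham for 23 members and below for 2, against 47.8% and 17.4% of all genes. The count was 0 when Control+RYGB 1, or the pair Control+RYGB 2 and 3, or Control+Sham 1, or Control+Sham 2 was left out. It was 0 higher and 1 lower when Control+Sham 3 was left out, and 1 higher and 0 lower when DM+Sham 1, or the pair DM+Sham 2 and 3, or Control+RYGB 2 was left out. All Control+RYGB arrays shared a slide position that no other array had, and no scan day held arrays of both groups, so within this pair neither slide position nor scan day can be told apart from the group. With scan day as a block in the fit over all groups, 0 members were called, against 0.471% of all genes, and with normexp background correction 0, against 0.345%. Control+Sham serves in this comparison and in the one on diabetes.

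**Figure D2:**
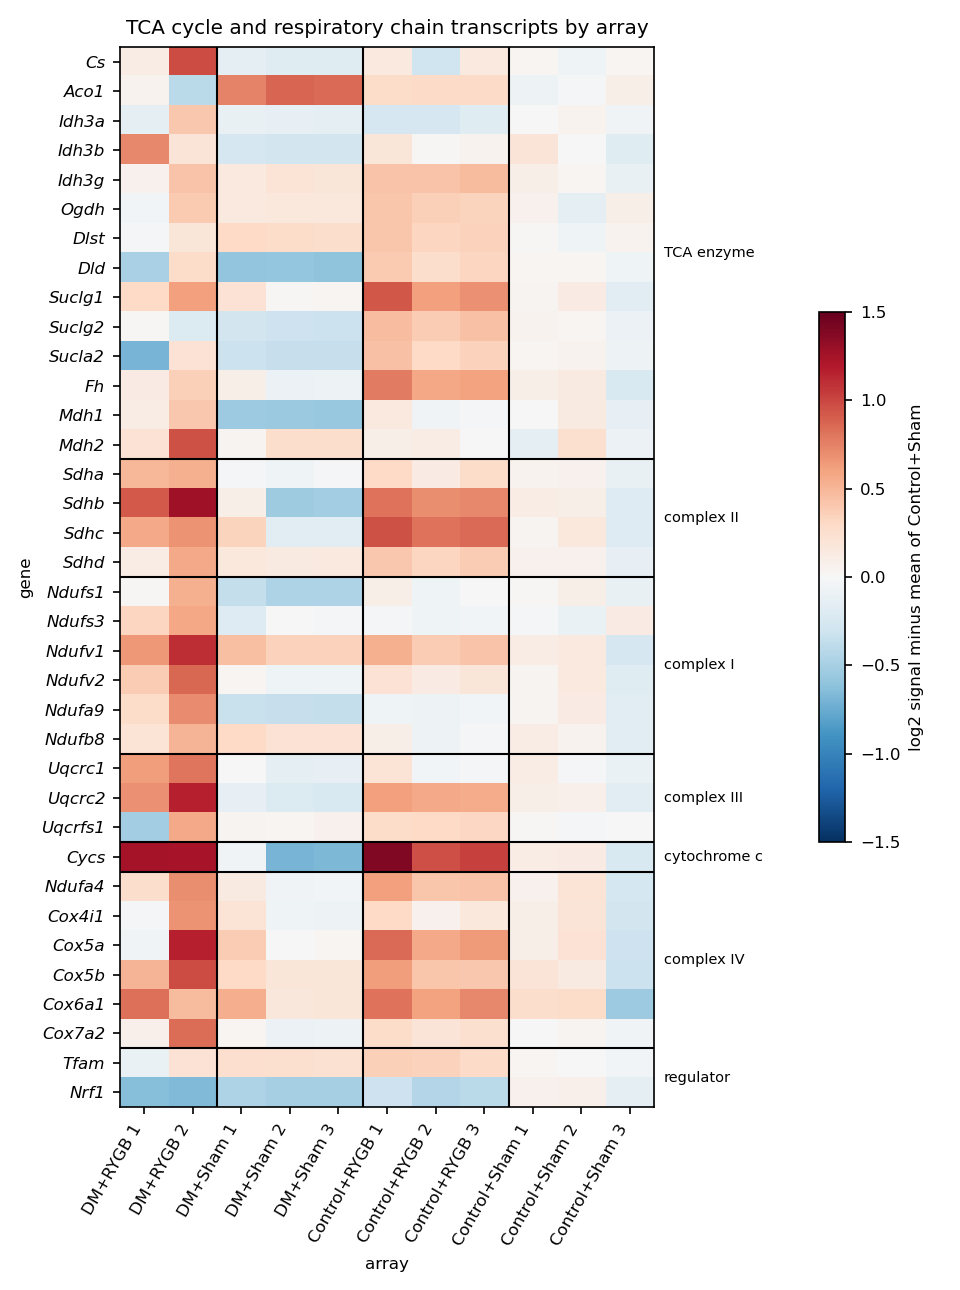
Log2 signal of the 36 measured members (rows, by class) on each of the 11 arrays (columns), minus the gene's mean in Control+Sham, with red for higher and blue for lower. Cycs is high in all DM+RYGB and Control+RYGB arrays, Aco1 is high in the DM+Sham arrays, and DM+RYGB 2 is redder than DM+RYGB 1 in most rows.

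**Figure D3:**
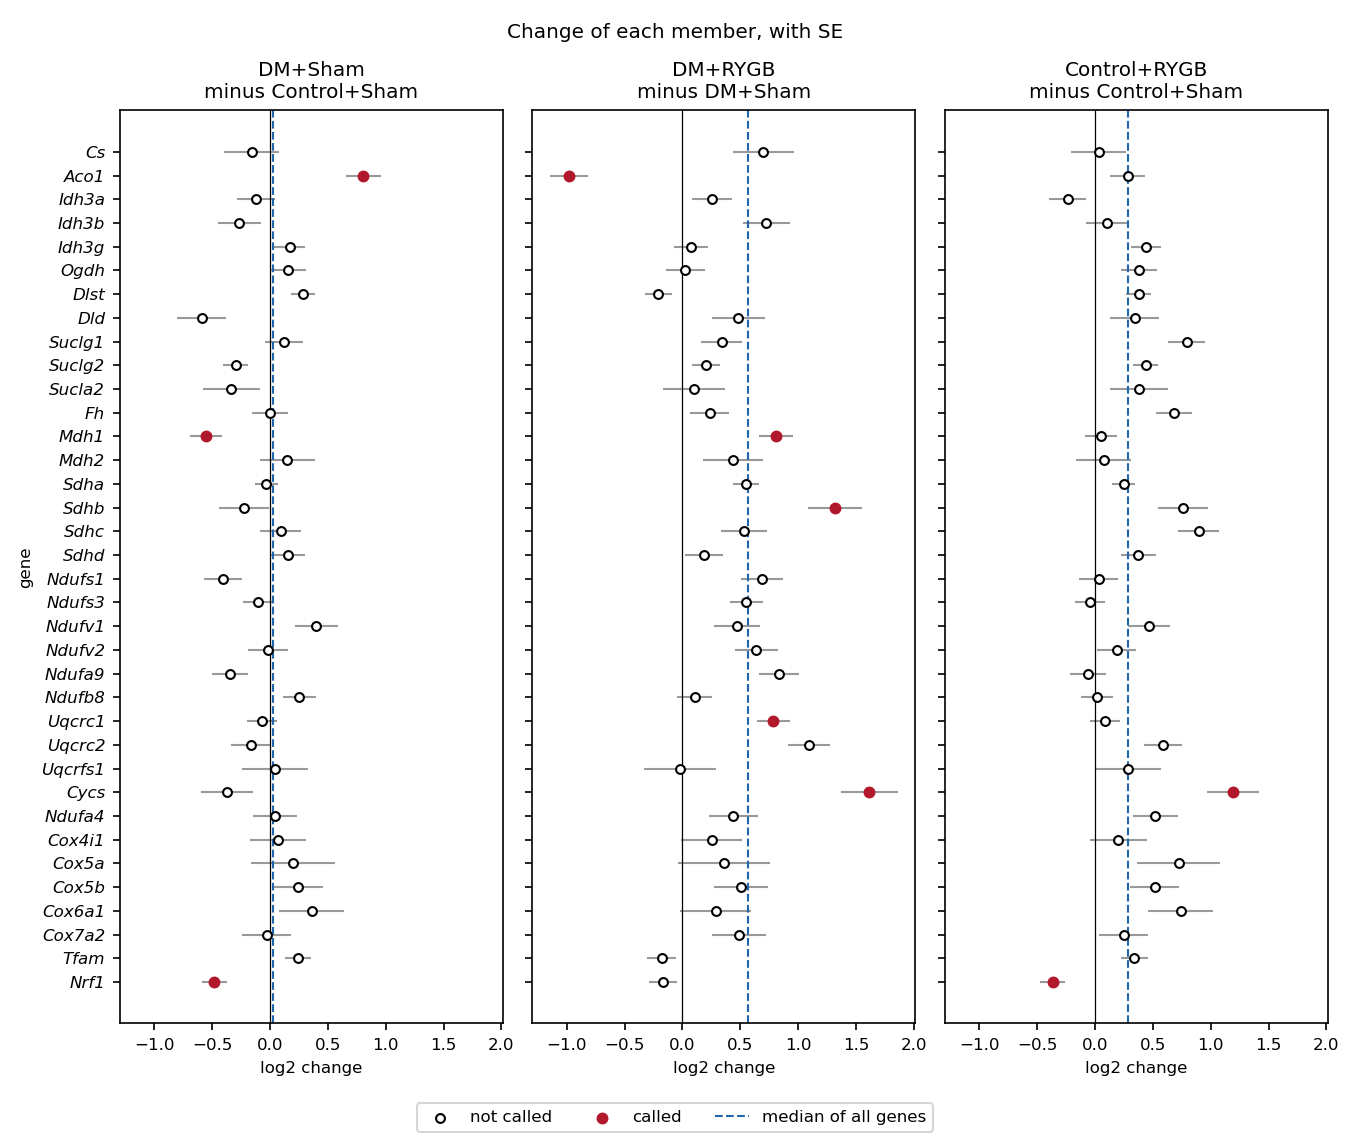
Change of each member on the log2 scale in 3 comparisons, with the standard error as a bar, the median of all genes as a dashed line and called genes in red. Most members lie near or to the left of the dashed line in DM+RYGB minus DM+Sham, where all genes shifted by 0.57.

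Among the TCA enzymes, Aco1 changed most clearly. It encodes the cytosolic aconitase, which turns citrate into isocitrate and, without its iron-sulphur cluster, acts as iron regulatory protein 1, so it is not the enzyme of the mitochondrial cycle. Its log2 signal over the 75th percentile was 2.43 and 1.97 in DM+RYGB, 3.13, 3.25 and 3.23 in DM+Sham, 2.66, 2.67 and 2.66 in Control+RYGB, and 2.30, 2.37 and 2.47 in Control+Sham. Every DM+Sham array was thus above every other array, and the highest Control+Sham array was above both DM+RYGB arrays. Aco1 rose 1.75-fold in DM+Sham against Control+Sham (0.81 on the log2 scale, SE 0.15, adjusted p = 0.015). It fell by 0.98 in DM+RYGB against DM+Sham (SE 0.17, adjusted p = 0.0042), and by 0.75 without DM+RYGB 2, where it was still called. In Control+RYGB against Control+Sham it differed by 0.28 (SE 0.15, adjusted p = 0.19). Within the 2 scan days that held both sham groups, Aco1 was 0.76 and 0.78 higher in DM+Sham, and within the day that held both diabetic groups it was 0.80 lower in DM+RYGB.

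The difference in Aco1 between bypass and sham groups was not the same in diabetic and control rats. In control rats this difference cannot be told apart from slide position or scan day. The interaction, which subtracts the change in control rats from that in diabetic rats, was -1.26 for Aco1 (SE 0.22, adjusted p = 0.010), with calls among all genes at 7.57% higher and 8.08% lower, 15.7% in either direction. It was the only member called. Mdh1, Ndufa9, Uqcrc1 and Dlst had adjusted p of 0.035 to 0.043 on the 75th percentile scale, with interactions of 0.76, 0.90, 0.70 and -0.58 (0.61, 0.68, 0.61 and -0.69 without DM+RYGB 2), but did not pass under all scalings. Without DM+RYGB 2, Aco1 (-1.03), Ogdh and Tfam were called lower, against 11.2% of all genes. Without DM+RYGB 1 the interaction of Aco1 was -1.49, and those of Mdh1, Ndufa9, Uqcrc1 and Dlst were 0.905, 1.11, 0.79 and -0.48. Aco1 was not the only member with a large interaction there. Those of Cs, Idh3a and Ndufs1 were 1.095, 0.76 and 0.91, against 0.235, 0.22 and 0.4 without DM+RYGB 2. Idh3b went the other way, at 0.36 against 0.88. The count was 0 when the pair DM+Sham 2 and 3, or Control+RYGB 1, or the pair Control+RYGB 2 and 3, or Control+Sham 1, or Control+Sham 2 was left out.

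Mdh1, the cytosolic malate dehydrogenase of the malate-aspartate shuttle, moved the other way from Aco1. It read 2.96 and 3.25 in DM+RYGB, 2.30, 2.28 and 2.28 in DM+Sham, 2.99, 2.79 and 2.83 in Control+RYGB, and 2.84, 2.97 and 2.72 in Control+Sham. All 3 DM+Sham arrays lay below all the others. Mdh1 fell by 0.55 in DM+Sham against Control+Sham (SE 0.14, adjusted p = 0.037) and rose 1.75-fold in DM+RYGB against DM+Sham (0.81, SE 0.15, adjusted p = 0.0056). This rise was 0.66 and no longer called under all scalings once DM+RYGB 2 was left out. In Control+RYGB against Control+Sham it differed by 0.05 (SE 0.14). Mdh2, the mitochondrial form, had no call, with 0.15, 0.43 and 0.07 in the same 3 comparisons and standard errors of 0.24 to 0.26. The middle value was 0.06 without DM+RYGB 2.

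**Figure D4:**
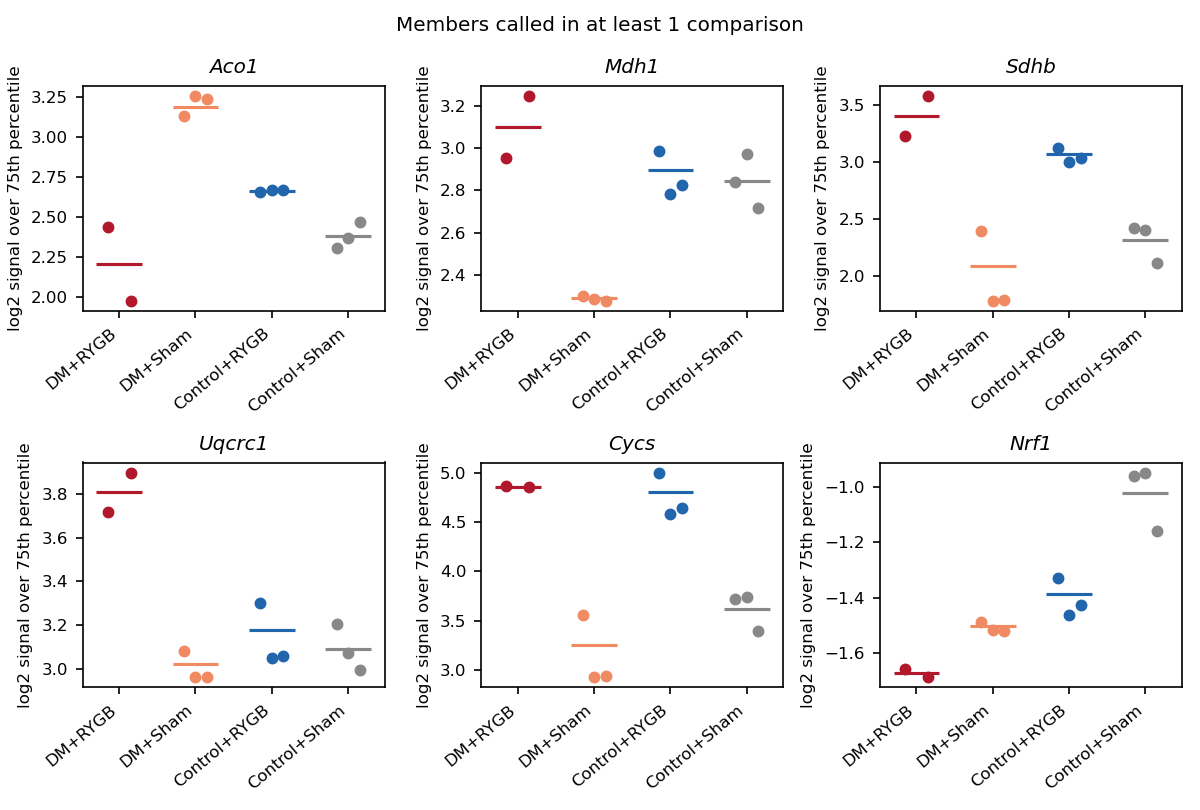
Log2 signal over the array's 75th percentile for the 6 members called in at least 1 comparison, 1 point per array and a line at each group mean over samples, with the y axis not starting at 0. The DM+Sham arrays are highest for Aco1 and lowest for Mdh1, and both bypass groups are above both sham groups for Cycs.

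The other cycle enzymes mostly stayed short of a call. Citrate synthase (Cs), which starts the cycle, read 1.70 and 2.56 in DM+RYGB, 1.46, 1.41 and 1.40 in DM+Sham, 1.73, 1.29 and 1.74 in Control+RYGB, and 1.62, 1.52 and 1.62 in Control+Sham. Its change of 0.70 in DM+RYGB against DM+Sham was 0.27 without DM+RYGB 2. Of the 3 subunits of the NAD-dependent isocitrate dehydrogenase, Idh3b read 3.37 and 2.85 in DM+RYGB, against 2.40, 2.37 and 2.37 in DM+Sham. It passed on the 75th percentile scale (0.73, SE 0.20, adjusted p = 0.023), was not called under all scalings with both arrays, and was called higher without DM+RYGB 2 (0.99). Idh3a and Idh3g differed there by 0.26 and 0.08 with both arrays, and by -0.01 and -0.10 without DM+RYGB 2.

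Ogdh, Dlst and Dld encode the E1, E2 and E3 parts of the 2-oxoglutarate dehydrogenase complex, and Dld also serves pyruvate dehydrogenase. The DM+Sham arrays lay below the Control+Sham arrays for Dld and above them for Ogdh and Dlst. Dld differed by -0.59 in DM+Sham against Control+Sham (SE 0.21, adjusted p = 0.11), and was called lower in the fit without DM+RYGB 2, which changes that comparison only through the shared estimate of the spread. It read 2.70 and 3.46 in DM+RYGB, against 2.59, 2.61 and 2.58 in DM+Sham, a difference of 0.48 that was 0.11 without DM+RYGB 2. Dlst differed by 0.29 and Ogdh by 0.15 between the sham groups, neither called.

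Succinyl-CoA ligase (Suclg1, Suclg2, Sucla2) and fumarase (Fh) averaged highest in Control+RYGB. Control+RYGB arrays were above all Control+Sham arrays for all 4 genes, by 0.79 for Suclg1, 0.44 for Suclg2, 0.38 for Sucla2 and 0.68 for Fh. Under quantile scaling these differences became -0.01, -0.07, -0.11 and 0.05, and none of the 4 was called (limma, 3 of them with adjusted p of 0.019 to 0.031 on the 75th percentile scale alone). Sucla2, the ATP-forming subunit, read 2.75 in DM+RYGB 1 and 3.67 in DM+RYGB 2, against 3.13, 3.10 and 3.10 in DM+Sham. It was called lower in DM+RYGB without DM+RYGB 2 (-0.36) and differed by 0.10 with both arrays. As a class, the TCA enzymes had a median of -0.09 relative to all genes in DM+Sham against Control+Sham, -0.32 in DM+RYGB against DM+Sham and 0.07 in Control+RYGB against Control+Sham. Under quantile scaling these became -0.14, -0.10 and -0.06, and the middle one was -0.53 without DM+RYGB 2.

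Complex II, succinate dehydrogenase, belongs to both the cycle and the chain. Its iron-sulphur subunit Sdhb read 3.23 and 3.58 in DM+RYGB, 2.39, 1.78 and 1.79 in DM+Sham, 3.13, 3.004 and 3.03 in Control+RYGB, and 2.42, 2.40 and 2.11 in Control+Sham. All bypass arrays were above all sham arrays. Sdhb rose 2.49-fold in DM+RYGB against DM+Sham (1.32, SE 0.23, adjusted p = 0.0050). The value was 1.14 and the call was lost without DM+RYGB 2. In Control+RYGB against Control+Sham it differed by 0.76 (SE 0.21), past the threshold on the 75th percentile scale (adjusted p = 0.041) and not under quantile scaling (0.48).

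The other 3 subunits were not called in any comparison. Sdhc, a membrane anchor, differed by 0.90 in Control+RYGB against Control+Sham (SE 0.18, adjusted p = 0.017 on the 75th percentile scale) and by 0.34 under quantile scaling. Sdha, the flavoprotein, read 4.95 and 4.99 in DM+RYGB, against 4.44, 4.39 and 4.42 in DM+Sham, a difference of 0.55 that became -0.19 under quantile scaling and 0.53 without DM+RYGB 2. Sdhd, the other anchor, differed by 0.15, 0.19 and 0.38 across the 3 comparisons, the middle value being -0.04 without DM+RYGB 2.

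Complex I oxidises NADH, and its 6 listed subunits had no call with limma in any comparison. At an unadjusted p under 0.05 there was 1 lower in DM+Sham against Control+Sham, 4 higher in DM+RYGB against DM+Sham, 1 higher in Control+RYGB against Control+Sham and 3 higher in the interaction. Among all genes, 14.3% were lower in the first of these comparisons at that p, and 48.1%, 34.6% and 22.5% were higher in the others. Ndufa9, an accessory subunit near the ubiquinone site, read 3.13 and 3.57 in DM+RYGB, 2.52, 2.51 and 2.51 in DM+Sham, 2.79, 2.79 and 2.81 in Control+RYGB, and 2.90, 2.98 and 2.70 in Control+Sham. The DM+Sham arrays were the lowest. It differed by 0.83 in DM+RYGB against DM+Sham (SE 0.17, adjusted p = 0.0079) and by 0.55 under quantile scaling (adjusted p = 0.032), but missed the threshold under median scaling. The difference was 0.62 without DM+RYGB 2.

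Ndufs1, the largest iron-sulphur subunit, was also lowest in the DM+Sham arrays. It read 3.49 and 4.01 in DM+RYGB, 3.11, 3.01 and 3.01 in DM+Sham, 3.56, 3.40 and 3.48 in Control+RYGB, and 3.49, 3.56 and 3.37 in Control+Sham. It differed by -0.41 in DM+Sham against Control+Sham (adjusted p = 0.14) and by 0.69 in DM+RYGB against DM+Sham (adjusted p = 0.019, and 0.18 under quantile scaling), or 0.43 without DM+RYGB 2. Ndufv1, the NADH-binding subunit, lay on the other side, with a difference of 0.40 in DM+Sham against Control+Sham (SE 0.18). Ndufs3, Ndufv2 and Ndufb8 differed by -0.10, -0.02 and 0.25 there, and by 0.55, 0.64 and 0.10 in DM+RYGB against DM+Sham. Without DM+RYGB 2 these became 0.42, 0.40 and -0.05.

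Complex III passes electrons from ubiquinol to cytochrome c. Uqcrc1, a core subunit, read 3.72 and 3.90 in DM+RYGB, 3.08, 2.96 and 2.96 in DM+Sham, 3.30, 3.05 and 3.06 in Control+RYGB, and 3.20, 3.07 and 2.996 in Control+Sham. Only the DM+RYGB arrays stood apart, and the other 3 groups overlapped. Uqcrc1 rose 1.72-fold in DM+RYGB against DM+Sham (0.78, SE 0.14, adjusted p = 0.0052). The value was 0.69 and not called under all scalings without DM+RYGB 2.

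Uqcrc2, the other core subunit, read 4.82 and 5.30 in DM+RYGB, against 4.02, 3.93 and 3.91 in DM+Sham. The difference of 1.09 (SE 0.18, adjusted p = 0.0040) became 0.41 under quantile scaling (adjusted p = 0.20) and was 0.85 without DM+RYGB 2. In Control+RYGB against Control+Sham Uqcrc2 differed by 0.59, which became -0.08 under quantile scaling. Uqcrfs1, the Rieske iron-sulphur protein, split the DM+RYGB arrays, with 3.18 in DM+RYGB 1 and 4.27 in DM+RYGB 2, against 3.75, 3.73 and 3.76 in DM+Sham. It differed by -0.02 with both arrays and was called lower without DM+RYGB 2 (-0.57).

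Cytochrome c, encoded by Cycs, carries electrons to complex IV and also triggers apoptosis when it leaves the mitochondrion. Cycs read 4.87 and 4.86 in DM+RYGB, 3.56, 2.92 and 2.94 in DM+Sham, 5.01, 4.58 and 4.65 in Control+RYGB, and 3.73, 3.74 and 3.39 in Control+Sham. Every bypass array was above every sham array. Cycs rose 3.06-fold in DM+RYGB against DM+Sham (1.62, SE 0.25, adjusted p = 0.0030) and 2.28-fold in Control+RYGB against Control+Sham (1.19, SE 0.23, adjusted p = 0.015). It was called without DM+RYGB 2 as well (1.62), where the 2 arrays of that group had differed by -0.01. The interaction was 0.42 (SE 0.33, adjusted p = 0.40) with both arrays and 0.43 without DM+RYGB 2, so a difference between the bypass effects was not called.

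The other Cycs probe gave smaller differences that were not called. It read 0.64 in DM+RYGB against DM+Sham (SE 0.30, adjusted p = 0.11) and 0.87 in Control+RYGB against Control+Sham (SE 0.27, adjusted p = 0.056). Its interaction had the opposite sign, -0.23. With the mean of a gene's probes, the call in Control+RYGB against Control+Sham was lost.

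Complex IV, cytochrome c oxidase, reduces oxygen to water. Its 6 members (Cox4i1, Cox5a, Cox5b, Cox6a1, Cox7a2 and Ndufa4) had no call with limma in any comparison, and at an unadjusted p under 0.05 there were 3 higher in Control+RYGB against Control+Sham, against 34.6% of all genes. These were Cox5b (0.52), Cox6a1 (0.74) and Ndufa4 (0.52), which became -0.10, -0.24 and -0.23 under quantile scaling. Cox5a, a nuclear-encoded subunit, read 3.19 and 4.41 in DM+RYGB, 3.63, 3.24 and 3.27 in DM+Sham, 4.09, 3.81 and 3.89 in Control+RYGB, and 3.34, 3.46 and 2.94 in Control+Sham. Its DM+RYGB arrays lay on either side of the DM+Sham arrays, and its difference of 0.36 between these groups was -0.26 without DM+RYGB 2. The 2 probes of Cox7a2 disagreed in sign, with -0.03 and 0.31 in DM+Sham against Control+Sham, 0.49 and -0.14 in DM+RYGB against DM+Sham, 0.25 and -0.04 in Control+RYGB against Control+Sham, and 0.24 and -0.10 in the interaction. The first of these probes gave 0.11 in DM+RYGB against DM+Sham without DM+RYGB 2. Relative to all genes, the median of complex IV was 0.11, -0.17 and 0.23 in those 3 group comparisons, and under quantile scaling -0.07, -0.15 and -0.16. The value of -0.17 was -0.45 without DM+RYGB 2.

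Of the 4 measured tissue isoforms of complex IV subunits, Cox4i2 was the one called with all arrays. Cox4i2, the lung-type and hypoxia-linked isoform of subunit 4, read -0.63 and -0.68 in DM+RYGB, -1.71, -1.84 and -1.83 in DM+Sham, -1.36, -0.52 and -1.12 in Control+RYGB, and -1.83, -2.04 and -2.34 in Control+Sham. It rose in DM+RYGB against DM+Sham (1.12, SE 0.23, adjusted p = 0.0076), where the call was lost without DM+RYGB 2 at 1.14, and in Control+RYGB against Control+Sham (0.98, SE 0.21, adjusted p = 0.020).

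Nrf1 encodes a transcription factor that binds the promoters of many respiratory genes. It read -1.66 and -1.69 in DM+RYGB, -1.49, -1.52 and -1.52 in DM+Sham, -1.33, -1.46 and -1.43 in Control+RYGB, and -0.96, -0.95 and -1.16 in Control+Sham. The Control+Sham arrays were above all the others. Nrf1 fell by 0.48 in DM+Sham against Control+Sham (SE 0.11, adjusted p = 0.027) and by 0.36 in Control+RYGB against Control+Sham (SE 0.11, adjusted p = 0.047). In DM+RYGB against DM+Sham it differed by -0.17 (SE 0.12, adjusted p = 0.25), and by -0.15 without DM+RYGB 2, but by -0.49 under median and -0.51 under quantile scaling (adjusted p = 0.023 and 0.014), so this comparison turned on the scaling. The other Nrf1 probe gave -0.21 (adjusted p = 0.22), -0.26 (adjusted p = 0.11) and 0.25 (adjusted p = 0.11) in these comparisons, so the last one disagreed in sign and neither fall was called with it. The summed level of 4 urothelium markers was also highest in Control+Sham, at 1.77, 1.74 and 1.62, against 0.128 to 0.415 in the other arrays, with 3 of the 4 called lower in each comparison with Control+Sham, and its part in the Nrf1 values was not tested.

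Tfam, whose product packs and transcribes mitochondrial DNA, had no call with all arrays. It read 1.16 and 1.47 in DM+RYGB, 1.51, 1.5 and 1.49 in DM+Sham, 1.62, 1.61 and 1.55 in Control+RYGB, and 1.29, 1.26 and 1.22 in Control+Sham. It differed by 0.24 in DM+Sham against Control+Sham (SE 0.12, adjusted p = 0.21) and by 0.34 in Control+RYGB against Control+Sham (SE 0.12, adjusted p = 0.069). In DM+RYGB against DM+Sham it differed by -0.18, and by -0.34 without DM+RYGB 2, where it was called lower.

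The 250 bases before the start of each gene were searched on both strands for the NRF1 motif (GCGCA, any base, then GCGC) and for the estrogen-related receptor motif TCAAGGTCA. RefSeq promoters of the rat build GRCr8 were found for 34 of 37 members. The NRF1 motif was in 3 of them (8.82%), against 3.75% of 33469 promoters, and the receptor motif was in 0 of the 34, against 0.388% of all promoters. The windows with a match are shown with the match in capitals, because they join the listed regulator to listed genes by sequence alone. A match is not a binding site. The 2 Sdha sites are at chr1:30764444-30764493 and chr1:30764487-30764536, and the Sucla2 and Uqcrc1 sites are at chr15:55161835-55161884 and chr8:118468139-118468188, all of them on the plus strand. The Uqcrc1 and Sucla2 matches are of the motif's other strand.
Sdha, 89 bases before the start: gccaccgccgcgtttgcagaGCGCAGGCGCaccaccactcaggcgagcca
Sdha, 46 bases before the start: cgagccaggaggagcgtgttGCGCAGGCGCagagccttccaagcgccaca
Sucla2, 39 bases before the start: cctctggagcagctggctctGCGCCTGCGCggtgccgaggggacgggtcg
Uqcrc1, 64 bases before the start: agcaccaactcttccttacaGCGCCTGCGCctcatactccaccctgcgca

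The 3 genes with a match differed in their calls. In DM+RYGB against DM+Sham, Uqcrc1 rose (0.78), while Sdha differed by 0.55 and Sucla2 by 0.10. Without DM+RYGB 2 these values were 0.69, 0.53 and -0.36. In DM+Sham against Control+Sham, where Nrf1 fell, Uqcrc1 differed by -0.07, Sdha by -0.03 and Sucla2 by -0.34.

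Other genes of the pathway were counted from lists of the same kind, by the same rule as the members. Each count of calls can be read against the shares of all genes called higher and lower, which were 6.67% and 6.46% in DM+Sham against Control+Sham, 13.1% and 10.9% in DM+RYGB against DM+Sham, and 7.77% and 5.49% in Control+RYGB against Control+Sham. Of 24 further complex I subunits measured, 0 were called with limma in DM+Sham against Control+Sham, 3 rose and 0 fell in DM+RYGB against DM+Sham, and 2 rose and 0 fell in Control+RYGB against Control+Sham. In the first of these, 1 was higher and 0 lower at an unadjusted p under 0.05, against 17.8% and 14.3% of all genes. The middle count became 0 higher and 4 lower without DM+RYGB 2. Ndufb2, an accessory subunit, read 3.81 and 3.65 in DM+RYGB, 2.89, 1.83 and 1.84 in DM+Sham, 4.18, 3.74 and 3.79 in Control+RYGB, and 2.68, 2.67 and 2.23 in Control+Sham. It rose by 1.37 in DM+RYGB against DM+Sham (SE 0.35, adjusted p = 0.018; 1.45 and not called without DM+RYGB 2) and by 1.45 in Control+RYGB against Control+Sham (SE 0.32, adjusted p = 0.023).

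Of 11 further subunits of complexes III and IV, 3 rose in DM+RYGB against DM+Sham (Cox7c, Uqcrh and Uqcrq) and 1 rose in Control+RYGB against Control+Sham (Cox7c). Without DM+RYGB 2 only Cox7c of these was called (2.78). Cox7c, a small subunit of complex IV, read 0.94 and 1.47 in DM+RYGB, -1.02, -2.66 and -2.65 in DM+Sham, 1.37, 1.08 and 0.96 in Control+RYGB, and -1.69, -1.68 and -0.67 in Control+Sham. As with Cycs and Ndufb2, every bypass array was above every sham array, by 3.04 (SE 0.58, adjusted p = 0.0063) in diabetic and 2.54 (SE 0.53, adjusted p = 0.020) in control rats.

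ATP synthase, which uses the proton gradient, had 14 measured genes. In DM+RYGB against DM+Sham, 2 rose and 1 fell, with Atp5pd, a stalk subunit, at 1.52 (SE 0.19, adjusted p = 0.0017). The count was 1 and 2 without DM+RYGB 2, and Atp5pd was called at 1.54. Atp5po, the oligomycin-sensitivity subunit, rose by 1.07 in Control+RYGB against Control+Sham (SE 0.20, adjusted p = 0.014). Of 30 assembly factors measured, 3 fell in DM+Sham against Control+Sham, namely Coa7, Timmdc1 and Ttc19, by 0.88, 0.80 and 0.50. Ttc19 serves complex III and Timmdc1 complex I, and they rose by 0.76 and 0.94 in DM+RYGB against DM+Sham, a comparison that shares the DM+Sham samples. Without DM+RYGB 2, Timmdc1 was called at 1.11, and Ttc19 differed by 0.67 and was no longer called. In that comparison 3 assembly factors rose and 3 fell with both arrays, and 2 and 4 without DM+RYGB 2.

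Of 12 measured genes next to the cycle, 2 rose (Me2, the mitochondrial malic enzyme, by 2.48, and Got1, the cytosolic aspartate aminotransferase, by 0.92) and 4 fell in DM+RYGB against DM+Sham, against 13.1% and 10.9% of all genes. The other 6 were not called. Me2 was dim, at -4.2 and -5.0 in DM+RYGB and -6.5, -7.7 and -7.7 in DM+Sham. Its probe was not well above background in Control+Sham 2. Leaving out DM+RYGB 2 gave 1 and 4, with Me2 called at 2.88 and Got1 at 0.70 no longer called. Pc, pyruvate carboxylase, which refills oxaloacetate, read 0.92 and 0.40 in DM+RYGB, 1.89, 1.87 and 1.88 in DM+Sham, 2.70, 2.59 and 2.65 in Control+RYGB, and 1.95, 1.87 and 1.83 in Control+Sham. It fell by 1.22 in DM+RYGB against DM+Sham (SE 0.18, adjusted p = 0.0025), and its interaction was -2.002 (SE 0.24, adjusted p = 0.0029). These were -0.96, still called, and -1.74 when DM+RYGB 2 was left out. Idh1, the cytosolic NADP-dependent isocitrate dehydrogenase, fell by 0.61 in DM+Sham against Control+Sham (adjusted p = 0.021) and by 0.94 in DM+RYGB against DM+Sham (adjusted p = 0.0026), where it was called at -0.78 without DM+RYGB 2. Slc25a10, the dicarboxylate carrier, rose by 0.90 in DM+Sham against Control+Sham (adjusted p = 0.014). Proximal tubule markers fell in the same comparison of DM+RYGB with DM+Sham, 10 of 15 of them, and their part in the falls of Pc and Idh1 was not tested.

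Among 11 measured genes of pyruvate entry, Pdk3 fell by 0.60 in DM+Sham against Control+Sham (adjusted p = 0.047) and Pdp2, a pyruvate dehydrogenase phosphatase, fell by 0.78 in DM+RYGB against DM+Sham (adjusted p = 0.0038) and was called at -0.69 without DM+RYGB 2. Pdk4, a kinase that shuts pyruvate dehydrogenase, was not called under all scalings with all arrays. It read -3.47 in DM+RYGB 1 and -0.48 in DM+RYGB 2, against -0.83, -0.84 and -0.80 in DM+Sham, and was called lower without DM+RYGB 2 (-2.65, against -1.15 with both arrays). It differed by 3.07 in DM+Sham against Control+Sham (SE 0.75, adjusted p = 0.037 on the 75th percentile scale).

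Of 19 regulators of mitochondrial biogenesis, 3 rose and 0 fell in DM+Sham against Control+Sham. They were Ppargc1a, which encodes the coactivator PGC-1alpha, and the nuclear receptors Esrrb and Esrrg, at 0.61, 1.37 and 0.63 with adjusted p of 0.015, 0.0039 and 0.012. Ppargc1a read -0.46, -0.55 and -0.56 in DM+Sham, against -1.02, -1.18 and -1.15 in Control+Sham, without overlap. In DM+RYGB against DM+Sham 0 rose and 5 fell. Polg2, the accessory subunit of the mitochondrial DNA polymerase, fell by 1.02 (SE 0.14, adjusted p = 0.0019), Gabpb1, part of NRF2, by 0.63 (SE 0.10, adjusted p = 0.0036), and Polg, the catalytic subunit of that polymerase, by 0.55. All 5 genes, Tfb2m and Gabpa included, were also called lower without DM+RYGB 2, where Polg2, Gabpb1 and Polg were at -0.86, -0.62 and -0.51. The 13 mitochondrially encoded genes had no matched probe and were not analysed here. Of 20 genes of import and inner membrane shape, Phb2 and Immt rose in DM+RYGB against DM+Sham, by 1.58 and 1.03, and Tomm40, the outer membrane pore, fell by 0.78. The 3 were called at 1.67, 1.11 and -0.92 without DM+RYGB 2, where 1 more gene was called lower.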

How the data were processed

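Renal cortex RNA was read on 11 single-colour Agilent arrays. The deposited scanner files hold spot intensity, which Feature Extraction 11.0.1.1 (Agilent) computed from the scans, per the file headers, with the background already subtracted in the processed signal. The authors' deposited series table holds log2 values, with every array's median at 7.07, and correlated with the scanner values at 0.989 to 0.997 per array. How it was normalized is not stated in the labels, and it served as an alternative.

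Of 44254 spots per array, 1377 were controls. Spots of a probe were averaged, log2 was taken, and the array's 75th percentile over non-control spots was subtracted. Of 30367 probes, 18005 had 1 gene symbol and 12362 none, by RefSeq identifier against the GRCr8 table. Each gene was its brightest probe that was well above background on at least 2 arrays. All 4 groups entered 1 limma model (limma 3.58.1, R 4.3.3) with 5 residual degrees of freedom, and p-values were adjusted by Benjamini-Hochberg over 25250 genes. A call needed an adjusted p under 0.05 in the same direction under 3 scalings (75th percentile, median, quantile). The number of arrays limits the precision.

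Arrays of a group were averaged where their difference had a smaller spread than repeated spots within an array: 0.021 against 0.063 and 0.064 for DM+Sham 2 and 3, and 0.051 against 0.064 and 0.074 for Control+RYGB 2 and 3. This measure, over probes with repeated spots, and the choice of spots for the 75th percentile were settled after values had been seen. Over all spots, Control+RYGB 2 and 3 had not met the rule, and both choices have alternatives.

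The members and lists were chosen with earlier results of these data known. Members could all be named, called ones always, and others by smallest p or role. Of each other list, up to 4 genes of smallest p per comparison were named, and of marker lists the brightest. Some genes of the other lists are not reported here. Gabpa, Tfb2m and Myh4 were named after their values were seen. On simulated data for DM+Sham against Control+Sham, 200 of 25250 genes were changed. Of these, 35% of changes of 1 and 69% of changes of 2 (log2) were recovered. In the real comparison 3314 genes were called, so these rates need not hold for it. Alternatives were background correction, scaling, filter, probe choice, separate arrays, replicate block, scan day, array weights and leaving out arrays.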

Additional observations from a re-analysis of the deposited data

Results flagged for a closer look

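Aco1 differed between the bypass and sham groups by -0.98 in diabetic rats and by 0.28 in control rats. In control rats this difference cannot be told apart from slide position or scan day. The interaction of diabetes and gastric bypass for Aco1 was -1.26 on the log2 scale (SE 0.22, adjusted p = 0.010 with limma). It was called under all 3 scalings, and it ranged from -1.49 to -1.03 when single arrays or both arrays of a merged pair were left out, with the call kept in 8 of 13 such fits. No group held the 4 samples needed for a check of single outlying samples.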

How the results depend on the processing

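Over 28 settings (27 for the interaction) no called member changed sign. Aco1 was called in 22 settings in DM+Sham against Control+Sham, in 27 in DM+RYGB against DM+Sham and in 22 in the interaction, and Cycs in 26 in DM+RYGB against DM+Sham and 20 in Control+RYGB against Control+Sham. Mdh1 (19) and Nrf1 (18) in DM+Sham against Control+Sham, Sdhb (23), Mdh1 (17) and Uqcrc1 (16) in DM+RYGB against DM+Sham, and Nrf1 (16) in Control+RYGB against Control+Sham held in fewer. Counts below are in the order DM+Sham against Control+Sham (3), DM+RYGB against DM+Sham (5), Control+RYGB against Control+Sham (2) and interaction (1), as far as they moved. The share of all genes called moved with the setting too, from 0.574% to 28.8% in DM+Sham against Control+Sham. A larger or smaller count, here or above, is therefore not by itself a result about the members.

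Normexp background gave 0, 1 and 0 calls, with relative medians of 0.11 (the sign turned), -0.97, 0.32 and -1.12. One scaling alone gave more calls: 12, 10 and 5 for the last 3 with the 75th percentile, 9, 4 and 3 with the median, and 9 in DM+RYGB against DM+Sham and 4 in the interaction with quantiles. Quantile scaling moved the relative medians to -0.13 in DM+Sham against Control+Sham, and turned them to -0.12 in Control+RYGB against Control+Sham and 0.089 in the interaction. The deposited table gave 11 calls in DM+RYGB against DM+Sham, where 38.6% of all genes were called, and 5 in the interaction. Its medians were -0.14, -0.15 (turned) and 0.089 (turned) for the same 3 comparisons as quantile scaling. In Control+RYGB against Control+Sham, no filter left 1 call and the mean of probes 0. Array weights gave 7, 2, 6 and 2, with the first count against 28.8% of all genes. A fit to the 2 groups alone gave 0 in DM+RYGB against DM+Sham. A change of at least 1 left 0, 2 and 0. Averaging only DM+Sham 2 and 3, chosen after seeing the data, gave 4 in Control+RYGB against Control+Sham and 2 in the interaction.

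Treating the 11 arrays as separate gave 6 calls in DM+Sham against Control+Sham, where 28% of all genes were called. It gave 4 in Control+RYGB against Control+Sham and 5 in the interaction. With the replicate block added there were 6 in DM+Sham against Control+Sham, where 26.3% of all genes were called, and 4 in the interaction. Same-numbered arrays correlated at -0.38 to 0.45 in their deviations and others at -0.44 to 0.41, so the numbers do not pair the samples. Scan day as a block gave 0, 3 and 0 calls and turned the medians in DM+Sham against Control+Sham to 0.01 and in Control+RYGB against Control+Sham to -0.10. The causes of these shifts were not tested.

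Leaving out arrays moved the count of calls in every comparison. It gave relative medians of -0.11 to 0.02, -0.41 to 0.09, 0.02 to 0.07 and -0.47 to 0.087. The last turned in sign without DM+RYGB 1. The sign also turned in DM+Sham against Control+Sham without Control+Sham 1 (0.008) or Control+Sham 2 (0.024), and in DM+RYGB against DM+Sham without DM+RYGB 1 (0.09).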
